A study of Mus musculus with 6 samples.

Results

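The Krüppel-like factors examined here are 10 mouse genes, Klf2, Klf3, Klf4, Klf5, Klf6, Klf7, Klf9, Klf10, Klf13 and Klf15, out of 55471 genes in the deposited table. They were taken by name, each symbol being matched to 1 Ensembl identifier; the rule uses no measured value, but the names were listed with earlier results of these data known. The cells were 10T1/2 embryonic fibroblasts, an established mouse line, kept in serum-containing medium without any treatment. PolyA RNA was sequenced in 6 libraries, 3 of the wild-type (WT) line and 3 of the genotype Ranbp2 KO, which was made by CRISPR/Cas9 in that line. Whether the KO cells are 1 clone or several is not stated, nor is how replicate cultures were kept apart, so the p-values measure only the spread between these libraries.

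KLF proteins are transcription factors that bind GC-rich and CACCC sequences through C2H2 zinc fingers at the carboxy terminus, a domain shared with the SP factors. Their amino-terminal regions differ and place them in groups: Klf3 is a repressor that recruits CtBP, Klf9, Klf10 and Klf13 recruit the SIN3A corepressor, and Klf2, Klf4, Klf5, Klf6 and Klf7 act mostly as activators or in both directions. In fibroblasts and mesenchymal progenitors several of them are early response genes to serum, TGF-beta or glucocorticoid, and they act on proliferation, contractile genes and fat cell formation.

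Upstream sequence is shown for 4 members, chosen after their values were seen: Klf2, Klf9 and Klf6, whose mRNA was called lower, and Klf4, whose mRNA did not pass the test. The sequences are the 250 bases before the RefSeq start (GRCm38.p6), 5′ to 3′ on the gene's strand, and capitals mark every match to a motif searched on both strands. The motifs were the CACCC box CCACCC, the GC box GGGCGG, the CCAAT box CCAAT, the core TGACG of the cAMP response element, the AP-1 site TGANTCA, the TATA box TATAAA, the CArG box and the MEF2 site.
Klf2, chr8:72318812-72319061, plus strand: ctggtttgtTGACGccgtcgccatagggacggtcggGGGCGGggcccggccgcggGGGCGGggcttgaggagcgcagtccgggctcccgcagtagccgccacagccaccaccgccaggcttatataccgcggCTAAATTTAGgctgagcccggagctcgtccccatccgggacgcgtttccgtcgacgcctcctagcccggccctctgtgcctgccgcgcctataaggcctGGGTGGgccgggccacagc
Klf9, chr19:23140976-23141225, plus strand: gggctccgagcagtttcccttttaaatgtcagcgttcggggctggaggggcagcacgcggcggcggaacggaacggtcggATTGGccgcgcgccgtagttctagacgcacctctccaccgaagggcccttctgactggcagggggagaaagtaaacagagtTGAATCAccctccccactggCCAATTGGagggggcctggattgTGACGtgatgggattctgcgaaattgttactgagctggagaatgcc
Klf6, chr13:5861239-5861488, plus strand: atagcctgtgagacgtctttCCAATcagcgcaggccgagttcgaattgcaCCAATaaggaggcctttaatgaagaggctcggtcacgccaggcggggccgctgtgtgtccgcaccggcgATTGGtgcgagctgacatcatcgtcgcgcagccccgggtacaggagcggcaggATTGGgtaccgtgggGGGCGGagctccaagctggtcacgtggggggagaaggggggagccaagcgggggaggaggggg
Klf4, chr4:55532476-55532725, minus strand: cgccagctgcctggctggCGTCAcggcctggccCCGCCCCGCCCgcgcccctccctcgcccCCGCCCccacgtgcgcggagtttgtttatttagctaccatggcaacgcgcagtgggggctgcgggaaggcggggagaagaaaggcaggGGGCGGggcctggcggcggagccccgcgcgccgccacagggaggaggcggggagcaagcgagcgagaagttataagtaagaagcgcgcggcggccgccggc

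The 4 windows differ in their motifs. The Klf2 window alone among the 8 members with a RefSeq entry held a MEF2 site, CTAAATTTAG at -118 to -109 counted from the start, a motif found in 2.92% of 32851 windows of the same length. The Klf9 window alone held an AP-1 site, TGAATCA at -89 to -83, found in 6.75% of windows, and it had no GC box. In the Klf6 window there were 4 CCAAT boxes and 1 GC box, and in the Klf4 window 4 GC boxes, 2 of which overlap by 1 base. GC boxes occurred in 7 of the 8 windows against 32.74% of all windows, CACCC boxes in 4 against 28.08%, CCAAT boxes in 4 against 33.85% and TGACG in 5 against 17.77%. The CArG box and the TATA box were in none of the 8, against 1.47% and 12.37% of all windows. The 8 windows were 59.2% to 78.4% G and C, above the median of 52.4% over all windows. Klf5 and Klf10 are named only. A match is a description of the letters and not a binding site.

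The mRNA of Ranbp2, the targeted nuclear pore gene, was not reduced in libraries of the KO genotype, which are therefore called KO-labelled. In CPM, counts scaled to a common library size after TMM correction, Ranbp2 stood at 293.8, 288.7 and 292.7 in these and at 219.6, 250.0 and 248.8 in WT libraries (log2 difference 0.28, SE 0.07). Values per gene cannot tell an edited transcript from an intact one. Libraries held 32072817 to 46321967 expected counts. Of the fibroblast markers, 10 of 10 were tested and 7 called, beside 38.9% of all genes tested. Col3a1, Pdgfra, Fn1, Dcn and Lum, 5 genes, were higher (17.6% of all genes), and Col1a1 and Pdgfrb, 2 genes, lower (21.3%). The summed level of all 10 was 21270 to 24680 CPM in WT and 26810 to 33730 CPM in KO-labelled libraries. Without Fn1 it was 15670 to 18550 CPM in WT and 15440 to 17350 CPM in KO-labelled libraries. Of 6 epithelial markers, Cdh1 was called higher (2.22 CPM in WT, 7.46 in KO-labelled libraries); of 6 leukocyte markers Cd14 was called lower (6.04 and 2.70), and of 4 neuronal markers Tubb3 (15.4 and 2.03). The leukocyte markers Csf1r (0.358 CPM in WT, 0.563 in KO-labelled libraries) and Cd68 (1.59 and 1.54) were tested and not called. Csf1r differed in the direction opposite to Cd14, without overlap of the groups. Among markers not tested, Epcam, Ptprc, Rbfox3 and Snap25 stood at or below 0.0606 CPM in mean in both groups, and Adgre1 and Cldn4 at 0. Krt8 (0.016 and 0.165 CPM), Krt18 and Syt1 were higher in KO-labelled libraries, without overlap. Krt18 had 1, 2 and 1 expected counts in KO-labelled libraries and 0 in each WT library. Syt1 had 3, 1 and 2 in KO-labelled and 0, 1 and 0 in WT libraries, so only the scaling to library size parts its groups. Krt14 (0.163 and 0.092 CPM) and Itgam were lower in mean, with overlap. Levels of a bulk sample cannot tell fewer cells of a type from less RNA per cell.

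The family's mRNA was lower in the KO-labelled libraries for 5 genes, higher for 1 and not called for 3 of the 9 that were tested, whereas Klf15 was too weakly expressed to test. Klf5 and Klf9 fell to 0.413 and 0.425 of their WT level, Klf6, Klf2 and Klf3 fell by smaller amounts, and Klf13 rose. Klf4, Klf7 and Klf10 did not pass the test. Calls are at an adjusted p below 0.05 by edgeR over all 15454 genes tested, of which 38.9% were called, 17.6% higher and 21.3% lower. The median log2 difference, KO-labelled minus WT, was -0.23 over the 9 members and 0.01 over all genes. The values of the groups did not overlap for 6 of the 9, against 51.4% of all genes tested. In 5 the KO-labelled libraries were all lower than every WT library (26.8% of all genes) and in 1 all higher (24.6%).

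**Figure D1:**
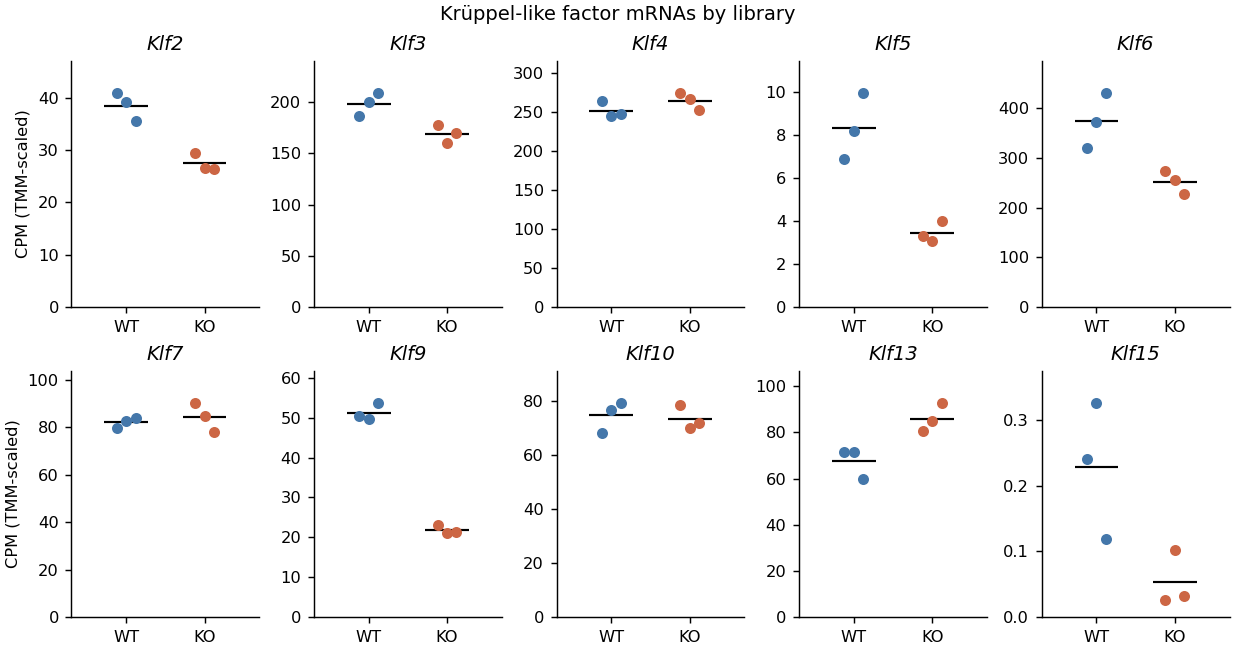
TMM-scaled CPM of the 10 genes (y axis, linear, starting at 0, own scale in each panel) in the 3 WT and 3 KO-labelled libraries, with 1 point per library and a line at the group mean. The groups lie apart in Klf2, Klf3, Klf5, Klf6, Klf9, Klf13 and Klf15, and overlap in Klf4, Klf7 and Klf10.

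Klf9, a glucocorticoid- and thyroid hormone-responsive repressor, had the smallest adjusted p of the family. Its KO-labelled values were 23.07, 21.09 and 21.2 CPM and its WT values 50.36, 49.77 and 53.64 CPM. The gap between the groups is far wider than the spread within either. The mean was 21.8 ± 1.11 against 51.3 ± 2.09 CPM (SD, n = 3), a log2 difference of -1.23 (SE 0.07, 95% interval -1.38 to -1.09) with an edgeR adjusted p of 1.62e-06. Genes of chromosome 19 stood at a median of -0.18, and with the median of each chromosome taken out Klf9 was at -1.05. The glucocorticoid receptor gene Nr3c1 and its target Fkbp5, a chaperone partner that restrains the receptor, were both called higher, at 0.27 (SE 0.07) and 0.84 (SE 0.07). With chromosome medians taken out, Fkbp5 was at 0.56 and still called, and Nr3c1 at 0.16 and not called (adjusted p 0.107). Per1, another listed glucocorticoid target, was not called, at -0.28. These 3 genes were named after their values were seen.

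Klf13, of the same SIN3A-recruiting group and known as an inducer of the chemokine gene Ccl5 in T cells, was the member that rose. Its KO-labelled values were 80.42, 84.86 and 92.65 CPM and its WT values 71.72, 71.67 and 59.7 CPM. The groups lie apart, by less than the spread within either. The mean was 85.98 ± 6.19 against 67.7 ± 6.92 CPM, a log2 difference of 0.34 (SE 0.09), with an edgeR adjusted p of 0.0138. This call was lost without KO-labelled library 3, where the difference was 0.28 and the adjusted p 0.0702. Ccl5 itself stood at 1.19 CPM in KO-labelled and 1.43 CPM in WT libraries and was not called. Within each library the ratio of Klf9 to Klf13, per length of exon, was 0.449, 0.389 and 0.358 in KO-labelled and 1.098, 1.086 and 1.405 in WT libraries. All KO-labelled ratios lie below all WT ratios, while which gene of the pair is the higher depends on the length used. Klf9 was lower and Klf13 higher in every KO-labelled library than in any WT library, so these ratios had to lie apart. An exact two-sided permutation test of them could only give p = 0.1, the smallest that 3 against 3 allows. It adds no support to the 2 single differences. Such a ratio does not depend on the scaling between libraries.

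Klf10, the TGF-beta-inducible member of this group, did not pass the test. Its values ran from 70.01 to 78.41 CPM in KO-labelled and from 68.13 to 79.07 CPM in WT libraries. The groups overlap, and the log2 difference was -0.03 with a 95% interval of -0.18 to 0.13.

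Klf5, a growth-promoting factor of smooth muscle and epithelium that also acts early in fat cell formation, had the largest negative difference of the family, at a low level. Levels were 3.288, 3.079 and 3.991 CPM in KO-labelled and 6.888, 8.178 and 9.954 CPM in WT libraries, from 120 to 126 and from 286 to 419 expected counts. The WT libraries spread widely but lie above all KO-labelled ones. The mean was 3.45 ± 0.477 against 8.34 ± 1.54 CPM, a log2 difference of -1.28 (SE 0.17, 95% interval -1.60 to -0.95) with an edgeR adjusted p of 0.000267. With chromosome medians taken out it was -1.26.

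Klf6, an injury- and serum-induced factor, was with Klf4 the most abundant member per length in WT cells. Its KO-labelled values were 273.9, 254.8 and 226.4 CPM and its WT values 319.8, 371.6 and 430.6 CPM. The groups do not overlap, and the WT values are the more spread. The log2 difference was -0.57 (SE 0.11, 95% interval -0.79 to -0.35), with an edgeR adjusted p of 0.00331. Klf6 lies on chromosome 13, whose 646 tested genes stood at a median of -0.28. With chromosome medians taken out, the Klf6 difference was -0.30 and the call was lost (adjusted p 0.0729). Klf7, its closest relative, known from neurons and as an inhibitor of fat cell formation, did not pass the test, at 77.87 to 90.16 CPM in KO-labelled and 79.86 to 83.77 CPM in WT libraries. The log2 difference of Klf7 was 0.04 with a 95% interval of -0.11 to 0.18. Klf7 lies on chromosome 1, where 967 tested genes stood at a median of 0.29, and with chromosome medians taken out it was called lower, at -0.25 (adjusted p 0.0250). The ratio of Klf6 to Klf7 within a library was 5.38 to 5.63 in KO-labelled and 7.42 to 9.52 in WT libraries (exact permutation p = 0.1). That p is the smallest that 3 against 3 allows, and the ratio is not corrected for chromosome medians. With these taken out the 2 genes stood close together, at -0.30 and -0.25, so the ratio adds no support to a difference between them.

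Klf2, a flow- and quiescence-associated factor of endothelium and lymphocytes that also blocks fat cell formation, fell. The 3 KO-labelled libraries had 29.46, 26.51 and 26.4 CPM, and the 3 WT libraries 40.9, 39.11 and 35.54 CPM. All 3 WT values lie above all 3 KO-labelled ones. The log2 difference was -0.49 (SE 0.08, 95% interval -0.65 to -0.33), with an edgeR adjusted p of 0.00117, and -0.47 with chromosome medians taken out. The summed CPM of 6 endothelial markers was 35.28 to 39.45 in WT and 20.88 to 24.74 in KO-labelled libraries. Nearly all of that sum was Tek, an angiopoietin receptor, at 37.03 and 21.93 CPM in mean. Pecam1, the other of the 2 tested, differed in the opposite direction, at 0.347 and 0.794 CPM. It was not called (log2 difference 1.215, edgeR adjusted p 0.091). Cdh5, Kdr, Emcn and Tie1 were not tested, at no more than 21 expected counts in any library. Cdh5 (0.131 CPM in WT, 0.011 in KO-labelled libraries) and Kdr (0.294 and 0.021) were lower in KO-labelled libraries, without overlap. Emcn (0.008 and 0.030) and Tie1 (0 and 0.009) were higher in mean, with overlap.

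Klf4, a reprogramming factor that arrests growth in many cells and the closest functional partner of Klf2, did not pass the test. Its values were 274.4, 266.4 and 252.8 CPM in KO-labelled and 263.8, 244.9 and 247.0 CPM in WT libraries, with overlapping groups. The log2 difference was 0.07 (95% interval -0.06 to 0.21). The ratio of Klf2 to Klf4 per length was 0.177, 0.164 and 0.172 in KO-labelled and 0.256, 0.264 and 0.238 in WT libraries (exact permutation p = 0.1). That of Klf6 to Klf4 was 0.622 to 0.693 in KO-labelled and 0.842 to 1.21 in WT libraries (exact permutation p = 0.1). In both ratios all KO-labelled values lie below all WT values. As Klf4 differed little, these ratios mostly restate the differences of Klf2 and Klf6 and add no support to them. Each p is the smallest that 3 against 3 allows.

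Klf3, the CtBP-dependent repressor, which restrains fat cell formation, was called lower by a narrow margin. Levels were 177.3, 160.5 and 170.2 CPM in KO-labelled and 186.4, 200.3 and 208.9 CPM in WT libraries. The groups lie apart by less than the range of either. The log2 difference was -0.23 (SE 0.07), with an edgeR adjusted p of 0.0301. The call was lost without KO-labelled library 2 or 3 (adjusted p 0.115 and 0.0808), without WT library 2 or 3 (0.107 and 0.0798), with library size alone (0.0677) and with the replicate number as a block (0.0850), while the difference stayed between -0.28 and -0.19. Klf3 is overlapped by the opposite-strand gene Gm20033 and the same-strand gene C230096K16Rik, which held at most 69.54 expected counts in a library against 5332 or more for Klf3, and whether the counting used strand is not given in the sources used here.

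Klf15, a glucocorticoid-induced regulator of amino acid and glucose metabolism in muscle, liver and fat, was at the limit of detection. It had 1, 4 and 1 expected counts in the KO-labelled libraries and 10, 15 and 5 in the WT libraries, and it did not pass the count filter. Over the groups the counts were 6 and 30, a WT to KO-labelled ratio of 4.19 after scaling to library size, with an exact 95% counting interval of 1.72 to 12.3 that leaves out the spread between libraries. Without a filter edgeR gave a log2 difference of -2.04 (SE 0.80) and an adjusted p of 0.0496, and DESeq2 an adjusted p of 0.134.

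**Figure D2:**
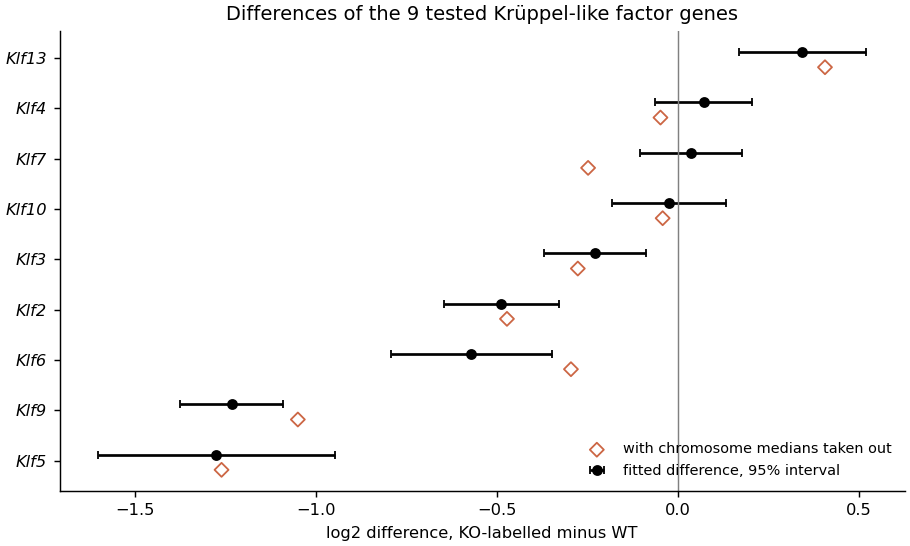
Log2 difference, KO-labelled minus WT (x axis), of the 9 tested genes, with bars for 95% intervals, and open diamonds for the same difference after the median of each chromosome was taken out. Klf5 and Klf9 lie beyond -1 on both measures, and Klf6 and Klf7 move most between them.

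Levels per length of exon, in CPM per kb of the union of annotated exons, allow the members to be ordered. In WT libraries Klf6 (85.2 ± 12.6) and Klf4 (82.6 ± 3.40) led with overlapping values, and the 3 highest members held 73.26% to 74.24% of the family's sum. Klf2 followed at 20.9 ± 1.48, then Klf10 (17.9 ± 1.38) and Klf3 (17.7 ± 1.01), whose values overlapped each other. Klf9 stood at 10.65 ± 0.434, Klf7 at 10.1 ± 0.251 and Klf13 at 8.99 ± 0.919, next to one another without overlap. Klf5 (1.60 ± 0.296) and Klf15 (0.0819 ± 0.0374) were far below.

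In the KO-labelled libraries Klf4 came first at 86.8 ± 3.59 CPM per kb and Klf6 second at 57.3 ± 5.45, with no overlap. Klf2 went from rank 3 to rank 5 at 14.9 ± 0.940, overlapping Klf3 at 15.1 ± 0.751, and Klf9 from rank 6 to rank 8 at 4.53 ± 0.231. Klf13 went from rank 8 to rank 6 at 11.42 ± 0.82, overlapping Klf7 at 10.36 ± 0.76. Klf4 made up 39.12% to 40.17% of the family's sum in KO-labelled and 30.33% to 35.23% in WT libraries, while Klf9 made up 2.01% to 2.12% and 4.07% to 4.26%. A share also moves when other members change, and the level of Klf4 itself did not pass the test. The shares were taken with the exon-union length only. The summed level of the 10 members was 208.1 to 230.1 CPM per kb in KO-labelled and 245.6 to 267.1 in WT libraries. Much of that fall was Klf6, from 85.2 to 57.3 CPM per kb, whose call was lost with chromosome medians taken out. Klf4, Klf7 and Klf13 had higher means in KO-labelled than in WT libraries, so the sum does not describe every member. The order rests on the length assigned to each gene. With the median transcript length, Klf2 ranked 7, Klf9 ranked 8 and Klf13 ranked 4 in both groups, so these shifts of rank were not seen, whereas Klf6 and Klf4 again exchanged ranks 1 and 2.

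**Figure D3:**
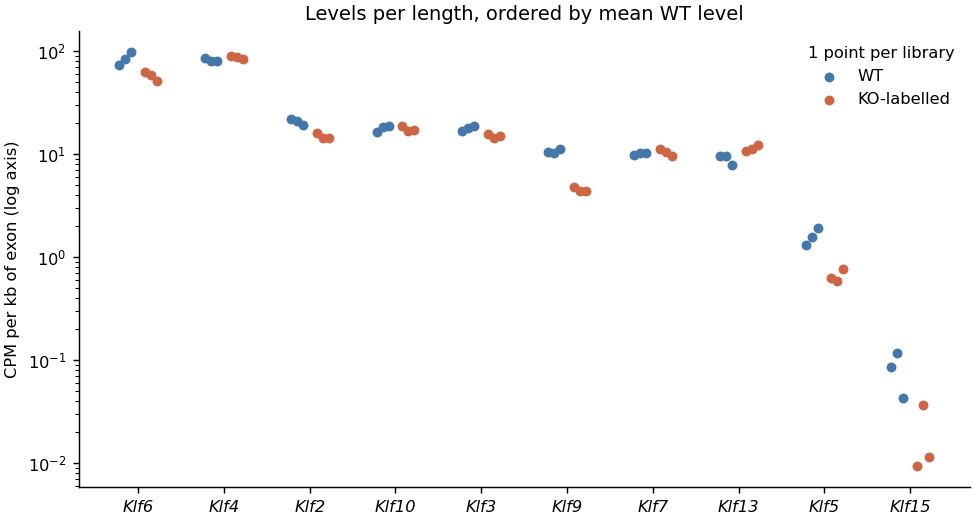
CPM per kb of exon (y axis, log scale) of the 10 genes, ordered by mean WT level, with 1 point per library. Klf6 and Klf4 lead in WT libraries, Klf4 leads in KO-labelled libraries, and Klf15 is lowest in both.

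The other genes of the KLF and SP family were called in 3 of the 9 tested, near the 38.9% called among all genes. Of 16 listed, 9 were tested, 1 was higher, 2 were lower and 6 were not called. The log2 differences had a median of 0.09 and a range of -0.34 to 0.30. Klf16, a repressor of the SIN3A group, fell from 39.8 to 31.3 CPM (-0.34, SE 0.09) and Sp2 from 23.3 to 19.2 CPM (-0.28, SE 0.07), the latter call being lost without KO-labelled library 2. Klf11, the closest relative of Klf10, rose from 11.85 to 13.96 CPM (0.24, SE 0.08; edgeR adjusted p 0.0402), a call kept in only 3 of 14 alternatives and lost on leaving out any 1 of the 6 libraries. With chromosome medians taken out none of these 3 genes was called, at -0.26, -0.21 and 0.13. Sp4 stood at 11.1 CPM in KO-labelled and 8.97 CPM in WT libraries and was not called. Sp1 and Sp3, the ubiquitous SP factors, were not called, at 0.09 and -0.01; they were named after their values were seen. The 7 untested genes reached at most 0.334 CPM in any library.

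Genes of proteins that act with or on KLF factors were called in 7 of 20 cases, near the 38.9% of all genes. Of these corepressors, acetyltransferases and ubiquitin ligases, 1 was higher, 6 were lower and 13 were not called, with a median of -0.07. Fhl3, a LIM-domain coactivator that binds Klf3, fell from 64.1 to 41.3 CPM (-0.64, SE 0.07). Smurf1 and Smurf2, ubiquitin ligases of the Smad pathway that also act on KLF proteins, fell by 0.44 (SE 0.08) and 0.29 (SE 0.07) on the log2 scale. Ctbp2, a corepressor of Klf3, fell from 45.2 to 37.7 CPM, a call lost without KO-labelled library 3 or WT library 2.

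Upstream regulators of KLF transcription were called in 12 of 18 cases, beside 38.9% of all genes. Of the 18, 3 were higher (17.6% of all genes), 9 lower (21.3%) and 6 not called. The median was -0.20, in a range of -1.24 to 0.38. With chromosome medians taken out, 1 of the 18 was called higher and 6 lower. In that setting 2151 of all 15454 genes were called higher and 2951 lower. Foxo3, a forkhead factor, fell from 42.8 to 18.1 CPM (-1.24, SE 0.11) and Foxo1 from 34.5 to 26.2 CPM (-0.40, SE 0.07). Heg1, a receptor that anchors the cerebral cavernous malformation (CCM) complex, fell from 154.6 to 80.26 CPM (-0.95, SE 0.09). Srf, the serum response factor, fell from 69.3 to 48.8 CPM (-0.51, SE 0.09). In the kinase cascade that induces Klf2 and Klf4 through MEF2, Mapk7, the gene of ERK5, was called lower at -0.50, and at -0.42 with chromosome medians taken out. Map3k3 (-0.32) and Map2k5 (-0.19) were also called lower, but with chromosome medians taken out they stood at -0.25 (adjusted p 0.0642) and -0.03 (adjusted p 0.798). The Map2k5 call was kept in 1 of 14 alternatives and lost on leaving out any 1 library, and the Map3k3 call was lost without KO-labelled library 1 or WT library 1 or 2. Of the MEF2 genes, Mef2d was called lower (-0.38), Mef2c higher (0.38) and Mef2a was not called (-0.10). The cascade and MEF2 genes were named after their values were seen.

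Genes reported in other systems as bound or regulated by KLF proteins were called in 15 of the 25 tested, out of 28 listed, beside 38.9% of all genes. Of the 25, 3 were higher (17.6% of all genes), 12 lower (21.3%) and 10 not called, with a median of -0.27 and a range of -3.22 to 0.84. Eng, a TGF-beta coreceptor reported as a Klf6 target, fell from 40.3 to 4.34 CPM (-3.22, SE 0.10). Cdkn1a, the cell cycle inhibitor p21 and a target of Klf4, Klf6 and p53, fell from 299.6 to 82.35 CPM (-1.86, SE 0.07). Thbd, the gene of thrombomodulin and a target of Klf2 and Klf4, fell from 134.9 to 46.79 CPM (-1.53, SE 0.07), and S1pr1, a sphingosine phosphate receptor that depends on Klf2 in T cells, from 26.95 to 13.44 CPM (-1.004, SE 0.09). EdgeR adjusted p-values of these 4 genes ran from 2.36e-08 to 1.69e-05. The list joins targets of different factors, some activated and some repressed, and Klf8 also stands in the family list. Which factor acts on these genes in 10T1/2 cells was not tested.

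**Figure D4:**
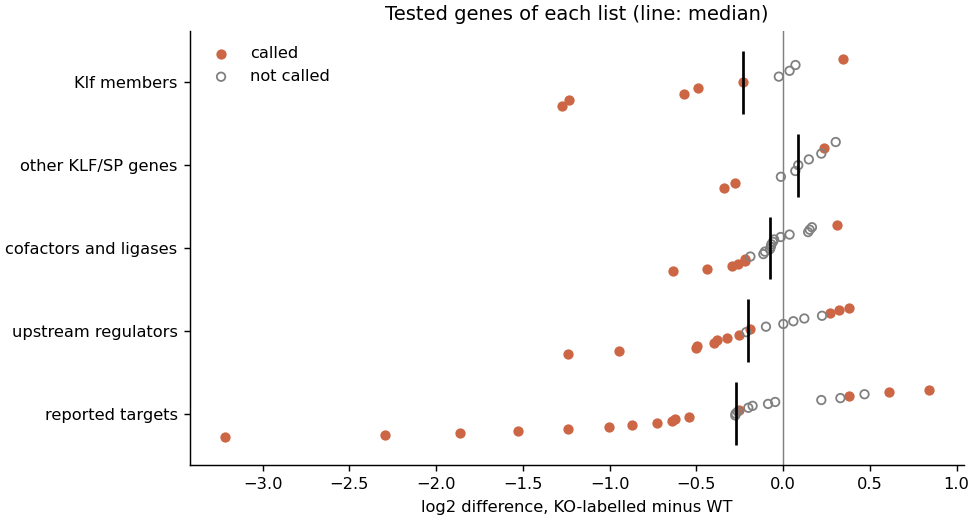
Log2 difference, KO-labelled minus WT (x axis), of each tested gene in the 5 lists, filled where called and open where not, with a line at the list's median. The reported targets reach furthest below 0 and the other KLF and SP genes span the narrowest range, -0.34 to 0.30.

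Genes whose log2 CPM over the 6 libraries was most like that of a member were taken for the member with the largest positive and that with the largest negative called difference. For Klf13 they were March8 (Pearson r 0.995), Uhrf1bp1 (0.9909) and Nod1 (0.9882), among 9390 genes compared, 116 of which were above 0.95. For Klf5 they were Erbin (0.9974), Rhobtb3 (0.9959) and Grem1 (0.9958), with 562 of 9391 genes above 0.95. All points share the same 2 groups, so a difference between the groups alone gives a high r.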

How the data were processed

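Per the submitters' processing notes, the authors trimmed reads with cutadapt and made estimated (expected) counts per gene with RSEM on GRCm38. Tool versions, aligner and strandedness: not given in the sources used here. Deposited expected counts were rounded. Of 55471 identifiers 55230 matched GENCODE M21, which gave symbols, positions and exon lengths. Genes were filtered with filterByExpr (minimum count 10, minimum total 15), scaled with TMM and compared with edgeR 4.0.16 in R 4.3.3 by the quasi-likelihood F test, two-sided, with no term but genotype and Benjamini-Hochberg adjustment over 15454 genes. SE was taken from the F statistic. The script was tested on simulated data. Members, lists, motifs and the gene pairs of the ratios were chosen with earlier results of these data known. Of each other list up to 4 genes with the smallest adjusted p were named. No pair of libraries was alike within sampling noise (chi-square per gene of at least 13.4). Same-numbered libraries did not deviate together, so no pairing was used. Alternatives were other scalings, filters, DESeq2 1.42.0, a replicate block, a chromosome offset, a threshold test and single libraries left out. Counting intervals cover counting error only.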

Additional observations from a re-analysis of the deposited data

How the results depend on the processing

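The 14 alternatives left Klf2, Klf5 and Klf9 called lower in every case, at -0.54 to -0.45, -1.40 to -1.13 and -1.28 to -1.05. With the replicate block, Klf3 was at -0.23 with an edgeR adjusted p of 0.0850. The other KLF/SP genes called higher went from 1 to 0 there, beside 2213 of the 15454 genes tested. That block rests on numbers that did not pair the libraries (same-number correlation of deviations -0.081 to 0.022). With the chromosome offset, Klf4 was at -0.048 and Klf7 at -0.25, both turned in sign. In that setting 0 other KLF/SP genes were called higher and 0 lower, and 0 cofactors higher. Of the upstream regulators, 1 was called higher and 6 lower. Among all 15454 genes tested, 2151 were called higher and 2951 lower. Against a threshold of 1.2-fold, 0 members, 0 other KLF/SP genes, 0 cofactors and 0 upstream regulators were called higher. Called lower were 4 members, 0 other KLF/SP genes, 2 cofactors and 5 upstream regulators. Among all 15454 genes, 1328 were called higher and 1851 lower. Klf3 and Klf13 were not called against that threshold. Without a filter, 2 other KLF/SP genes were called higher, beside 2736 of 30473 genes tested. Klf11 was not 1 of them. Both were among the 7 genes that the filter had left untested, at no more than 0.334 CPM in any library. Klf10, not called anywhere, turned in sign with library size alone (2.58e-06), without KO-labelled library 2 (0.0055) and without WT library 3 (0.017), in a range of -0.090 to 0.017 with 1 library left out. Klf7 ranged from -0.016, without KO-labelled library 1, to 0.087. With 1 library left out, members called ranged from 0 to 1 higher and 4 to 5 lower, other KLF/SP genes from 0 to 1 and 1 to 2, cofactors from 0 to 2 and 3 to 6, upstream regulators from 2 to 4 and 6 to 8, and reported targets were at 3 and from 11 to 13. Those fits with 1 library left out called 1839 to 2737 genes higher and 2514 to 3369 lower, among 15775 to 15896 tested. The cause of the changes between settings was not tested.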
